A study of Homo sapiens with 2 samples.

Results

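The unfolded protein response and the amino acid stress response were examined through 36 genes, chosen by name from the biology of these pathways. Their values were not a criterion, but earlier results of these data were known when they were chosen. All 36 were represented on the array, by 119 of the 44988 probe sets that carry 1 gene symbol, and all 36 passed the filter on low values that 12220 of 18132 genes passed. Each gene was read on its brightest probe set. By role they were 14 chaperones and folding enzymes of the endoplasmic reticulum (ER), 4 genes of ER-associated degradation, 5 stress sensors and transcription factors, and 13 targets of the transcription factor ATF4.

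Proteins that fold poorly in the ER are sensed by the membrane proteins IRE1 (gene ERN1), PERK (EIF2AK3) and ATF6. IRE1 splices the XBP1 messenger RNA and ATF6 is cut to release a transcription factor, and both routes raise chaperones and degradation genes through short promoter elements. PERK phosphorylates the initiation factor eIF2, as other kinases do when amino acids run short, which slows translation in general but raises translation of ATF4. ATF4 then raises genes of amino acid synthesis and import, and, when stress lasts, of cell death.

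Expression was measured with Affymetrix arrays in HCT116, an established line from a human colorectal carcinoma. The scrambled group (labelled Scr and NC) was the control, and the shSUN2 group carried the hairpin shSUN2-1 against SUN2, an inner nuclear membrane protein. The labels name no ER stressor and no amino acid withdrawal in either group. Each group held 1 array, so there is no replicate, no test and no error between cultures for any value below. Only 1 hairpin was used, and the labels do not say whether the cells were a clone or a pool.

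Each difference below is log2(intensity + 16) in the knockdown array minus the same in the control array. Folds, and sizes such as 25% higher or 20% lower, are of intensity + 16. SUN2 itself read 498 in the control and 407 in the knockdown, a difference of -0.28. All 9 epithelial markers examined were past the filter, with intensities from 199 to 3045. Of 15 measured fibroblast, immune and endothelial markers 7 were past it, at 254 or less, which background probe sets rich in G and C bases also reached. Across the 12220 genes the median difference was -0.0009, with quartiles of -0.08 and 0.11. Differences grew with intensity: the median was -0.04 in the dimmest of 10 equal bins of genes and 0.10 in the brightest. The members lie mostly in the bright part, with 22 of 36 in the 3 brightest bins. Whether this trend accounts for the results on groups below was not tested. The spread of a gene's probe sets about their mean had an SD of 0.09, pooled over 5786 genes with at least 2 probe sets past the filter. This SD covers differences between probe sets of a gene on the same arrays, pooled over all intensities past the filter, and no error between cultures. It is the yardstick used here.

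The ER stress response element, ERSE, is the promoter sequence through which ATF6 and XBP1 act on chaperone genes. RefSeq promoter windows (GRCh38.p14, 250 bases before to 50 after each start site) were matched to 33 of the 36 members. The letters searched were CCAAT, 9 further bases and CCACG, on either strand, and they were found in windows of 7 of these 33 genes (21.2%), against 0.0916% of the 27305 genes in the table. All but XBP1 of the 7 are ER chaperones or folding enzymes. Because the genes were chosen from the pathway that acts through such elements, this share and those below are no independent result. The matches are printed because they are a sequence feature that 6 of the 13 ER chaperones with a window share. Matched letters are in capitals, and each line is read in the direction of its gene.
HSPA5 (chr9:125241379-125241421, minus strand): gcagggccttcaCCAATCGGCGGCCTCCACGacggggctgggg
HSP90B1 (chr12:103930204-103930246, plus strand): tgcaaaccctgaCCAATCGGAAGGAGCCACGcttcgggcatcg
CALR (chr19:12938372-12938414, plus strand): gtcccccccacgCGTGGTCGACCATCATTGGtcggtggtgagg
PDIA6 (chr2:10812841-10812883, minus strand): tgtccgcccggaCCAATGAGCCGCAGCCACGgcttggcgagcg
CRELD2 (chr22:49918542-49918584, plus strand): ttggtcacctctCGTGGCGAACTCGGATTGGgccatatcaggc
XBP1 (chr22:28800591-28800633, minus strand): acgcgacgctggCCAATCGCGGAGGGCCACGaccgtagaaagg
CALR and CRELD2 hold the element on the opposite strand. CANX holds it too, and HSP90B1 has a second match.

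The shorter element ERSE-II, with the letters ATTGG, 1 further base and CCACG on either strand, was found in 3 members (9.09%), against 0.0696% of all genes in the table. They were SDF2L1, HYOU1 with 2 matches, and HERPUD1. The unfolded protein response element, TGACGTGG, was found in HYOU1 alone among the members, overlapping 1 of its ERSE-II matches, and in 0.927% of all genes. The composite site of C/EBP and ATF proteins, with the letters TGATGNAA, was found in 4 members (12.1%) and in 4.46% of all genes. These were HERPUD1 and the ATF4 targets CHAC1, ASNS and SLC3A2, and the last match lay after the start site. HERPUD1 is shown because it was the only member with matches of both kinds, SDF2L1 as a chaperone with ERSE-II, and CHAC1 and ASNS because they hold the composite site before their start.
HERPUD1, ERSE-II (chr16:56932013-56932047, plus strand): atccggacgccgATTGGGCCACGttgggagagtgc
HERPUD1, composite site (chr16:56931954-56931985, plus strand): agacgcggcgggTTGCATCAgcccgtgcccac
SDF2L1, ERSE-II (chr22:21642102-21642136, plus strand): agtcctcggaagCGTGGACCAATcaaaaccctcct
CHAC1, composite site (chr15:40953250-40953281, plus strand): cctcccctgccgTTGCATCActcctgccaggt
ASNS, composite site (chr7:97872457-97872488, minus strand): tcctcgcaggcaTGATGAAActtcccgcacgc
A match of letters is a description and no evidence of binding in these cells.

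Most members differed little between the arrays. In bulk RNA such as this, a difference in fewer cells and a smaller difference in RNA per cell cannot be told apart. The brightest probe set lay within 1 probe set SD of 0 for 19 of the 36 members and within 2 SDs for 29, where 52.0% and 84.2% of all genes did. DNAJB9, SLC7A5 and MTHFD2 read at least 25% above the control (8.33% of members, against 3.09% of all genes past the filter). No member read 20% or more below it (0.442% of all genes), and none reached 1.5-fold in either direction (0.336% of all genes higher and 0.0245% lower). After quantile normalization or a loess correction for intensity 1 member was past the upper size, DNAJB9, and 1 past the lower, PHGDH. When a gene's probe sets were averaged, 0 members were past the upper size.

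**Figure D1:**
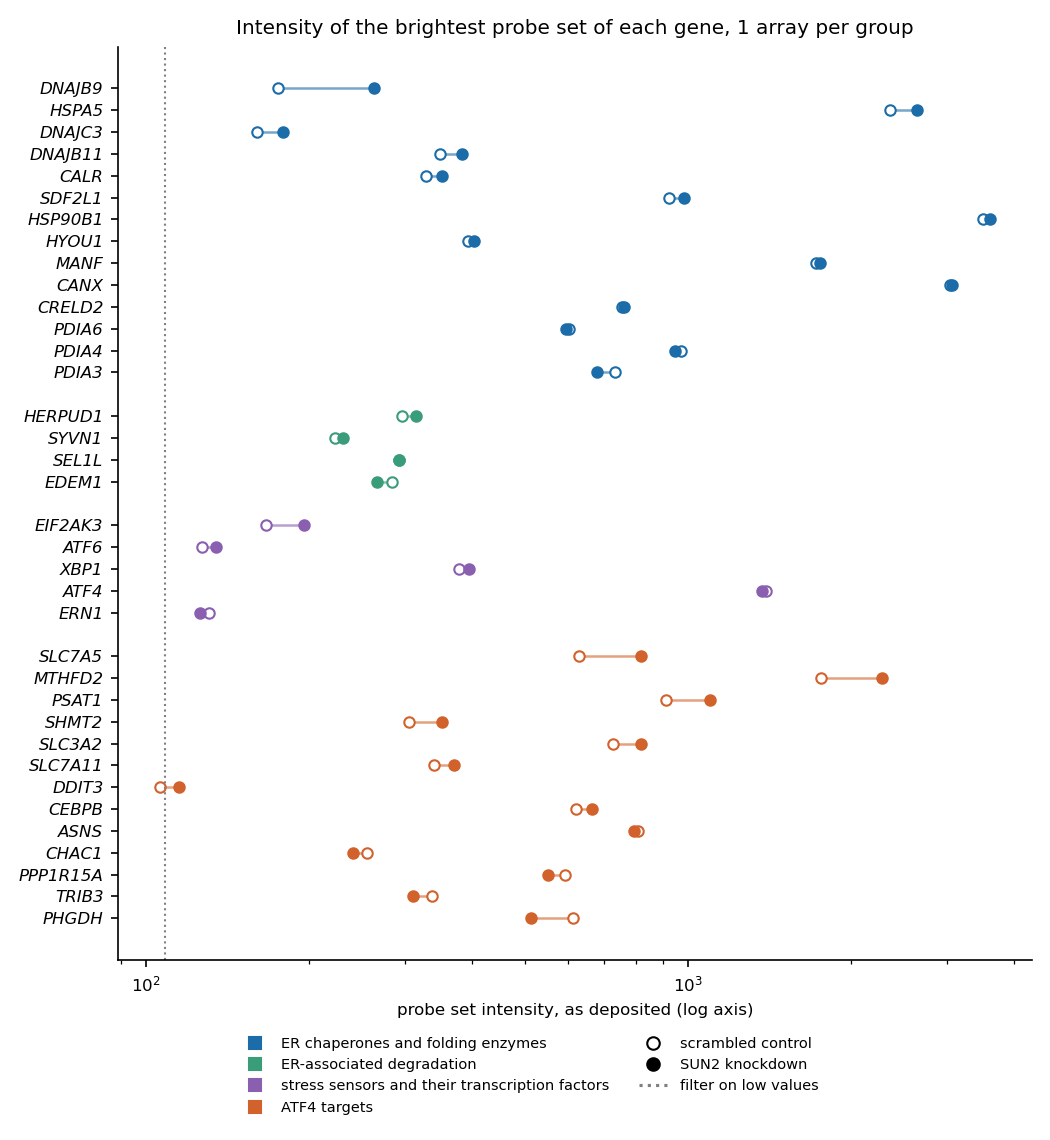
Deposited intensity (log axis) of the brightest probe set of each of the 36 genes in the scrambled control (open) and the SUN2 knockdown (filled), 1 array each, grouped by role and sorted by difference. Gaps are widest for DNAJB9, SLC7A5, MTHFD2, PSAT1 and PHGDH, and the points of most ER chaperones nearly coincide.

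Differences of the classical ER chaperones were small on their brightest probe sets. HSPA5, the Hsp70 of the ER known as BiP, read 2355 in the control and 2644 in the knockdown, a difference of 0.17. All 6 HSPA5 probe sets were higher, by 0.05 to 0.25. After quantile normalization the HSPA5 difference was 0.04 and after loess 0.06, both smaller than the probe set SD. HSP90B1, the Hsp90 of the ER known as GRP94, read 3495 and 3615, a difference of 0.05, and its 7 probe sets were higher by 0.04 to 0.19. The lectin chaperones, which hold newly made glycoproteins, were CANX with 3043 and 3070 (0.01) and CALR with 329 and 352 (0.09). The 9 CANX probe sets ran from 0.0004 to 0.20, and leaving out _x_at and _s_at probe sets gave CANX a difference of 0.17. HYOU1, an exchange factor for BiP, read 392 and 403 (0.04) on its brightest probe set, but its other 6 probe sets past the filter were lower, down to -0.13.

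The 3 chaperone group members below 0 were disulfide isomerases, which form and reshuffle disulfide bonds. Isomerases outside this group did not share that direction. P4HB read 1594 and 1820 (0.19), and its 6 probe sets were higher by 0.13 to 0.30. PDIA5 read 294 and 309 (0.07) on its 1 probe set. P4HB and PDIA5 were named after their values were seen. PDIA3, the partner of calnexin and calreticulin, read 733 and 679, a difference of -0.11, and its second probe set differed by 0.02. PDIA4 read 969 and 946 (-0.03) and PDIA6 read 604 and 594 (-0.02). The PDIA3 difference was just larger than the probe set SD and the other two were smaller. After quantile normalization PDIA3 stood at -0.21 and PDIA4 at -0.16, after loess at -0.20 and -0.14, and leaving out _x_at and _s_at probe sets put PDIA3 at 0.02. The small secreted or lumenal stress proteins also differed by less than the probe set SD: MANF, a factor released from stressed ER, stood at 0.03, CRELD2 at 0.01 and SDF2L1 at 0.09.

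The J-domain cochaperones hand clients to BiP, and 1 of them, DNAJB9, had the largest difference of the 36 genes. DNAJB9, also called ERdj4, read 175 in the control and 263 in the knockdown, 1.46-fold higher (0.55). Only 50 of the 12220 genes had a larger increase. This value rests on 1 probe set past the filter: the 2 others lay near the lowest intensities of the array, with 40.9 and 51.7 on one (0.25) and 42.3 and 43.5 on the other (0.03). DNAJB9 stood at 0.53 after quantile normalization, 0.55 after loess and 0.28 as the mean of its 3 probe sets. Its brightest probe set belongs to the _s_at class, whose probes can match several transcripts. DNAJC3, which restrains PERK, read 160 and 179 (0.15), and DNAJB11 read 349 and 383 (0.13), both below the 0.17 of HSPA5.

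**Figure D2:**
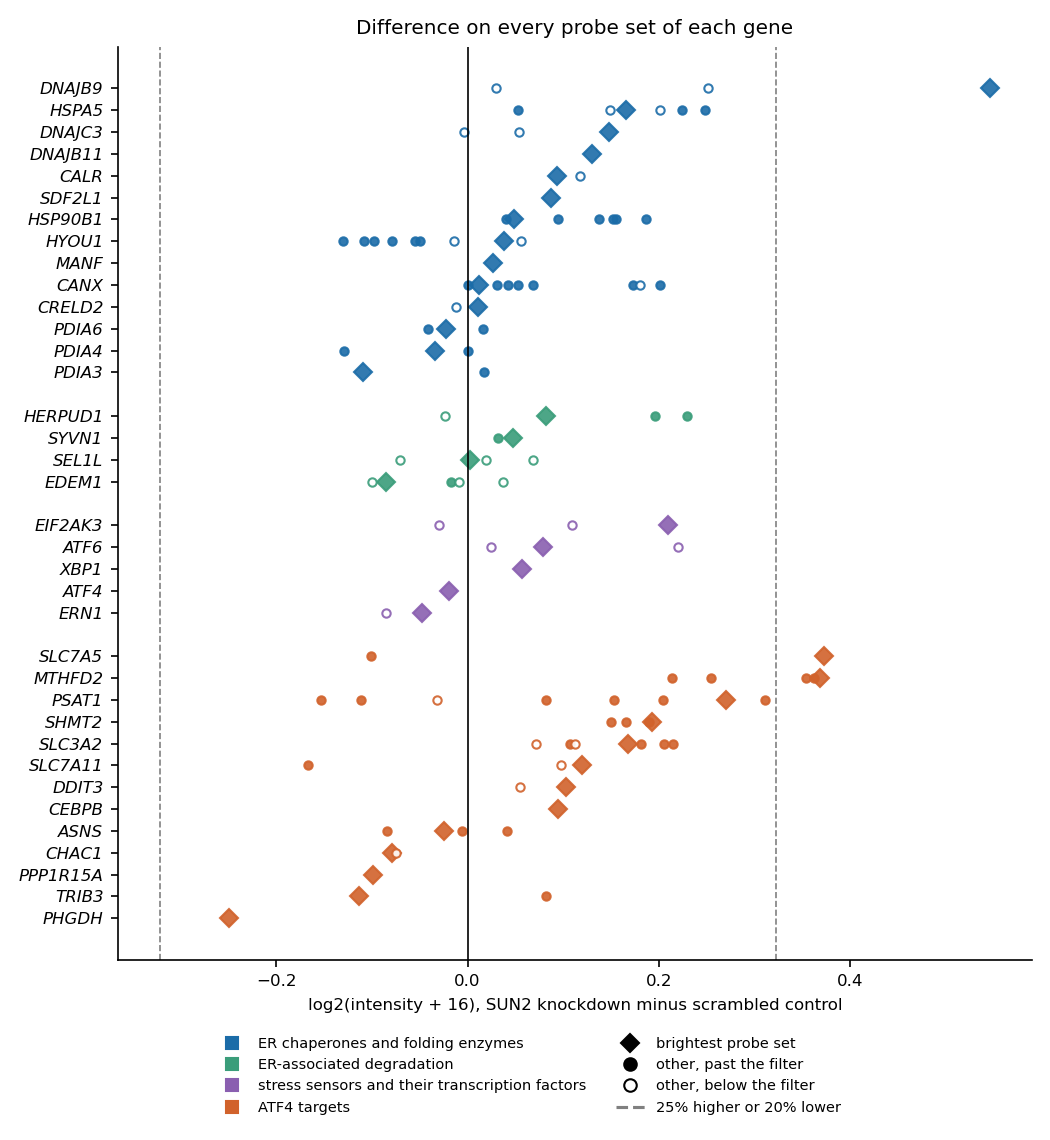
Difference between the arrays (x axis, log2) on every probe set of each gene, with the brightest as a diamond and probe sets below the filter open. The 5 MTHFD2 probe sets and the 4 SHMT2 probe sets all lie above 0, whereas those of PSAT1, SLC7A5 and SLC7A11 lie on both sides.

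Genes of ER-associated degradation, which exports misfolded proteins to the proteasome, were higher in 3 of 4 cases, by 0.08 or less. HERPUD1, a membrane component of that machinery, read 297 and 315 (0.08), and its 3 probe sets past the filter were higher by 0.08 to 0.23. SYVN1, the ubiquitin ligase HRD1, read 223 and 231 (0.05), and its adaptor SEL1L read 293 on both arrays (0.003). EDEM1, which marks glycoproteins for disposal, read 284 and 267 (-0.09). The median of the 4 was 0.02.

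Among the sensors and factors, EIF2AK3 alone lay more than 2 probe set SDs from 0. It read 167 in the control and 195 in the knockdown (0.21), while its 2 probe sets below the filter differed by -0.03 and 0.11. ATF6 read 126 and 134 (0.08) and ERN1 131 and 126 (-0.05), both close to the filter at an intensity of 108 and in the range of the background control probe sets. XBP1 read 378 and 394 (0.06) on its single probe set, and spliced and unspliced XBP1 were not told apart here. ATF4 read 1390 and 1371 (-0.02), also on 1 probe set. ATF4 and the sensors act largely through translation, cleavage and phosphorylation, which these values do not measure.

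The ATF4 targets had a wider interquartile range than the chaperones, at 0.27 against 0.11 for the 14 ER chaperones and 0.19 for all genes past the filter. Their full range, from -0.25 to 0.37, was no wider than that of the chaperones, which ran from -0.11 to the 0.55 of DNAJB9. Of the 13 targets 8 were higher and 5 lower (49.8% of all genes were higher and 50.2% lower). The higher ones were enzymes of one-carbon metabolism and transporters, with 1 serine enzyme, DDIT3 and CEBPB. The lower ones were ASNS, TRIB3, CHAC1, PPP1R15A and PHGDH.

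MTHFD2, a mitochondrial enzyme of folate one-carbon metabolism, was higher on all of its probe sets. On the brightest probe set it read 1762 in the control and 2279.8 in the knockdown, 1.29-fold higher (0.37), and its 5 probe sets ran from 0.21 to 0.37. Its difference was 0.27 after quantile normalization and 0.26 after loess, in both cases under the 0.32 that a 25% increase amounts to. SHMT2, which feeds serine carbon into the same mitochondrial pathway, read 305 and 351 (0.19), with 4 probe sets higher by 0.15 to 0.19. The 2 consecutive steps were thus both higher, on every probe set they had.

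The serine synthesis enzymes upstream of them did not share 1 direction. PHGDH, the first enzyme of the route, read 612 and 512, a difference of -0.25, and 131 of 12220 genes had a larger decrease. That value rests on 1 probe set, and a brighter probe set that lists PHGDH together with MZT2B read 2381 and 2375 (-0.004). PSAT1, the second enzyme, read 909 and 1099.6 on its brightest probe set (0.27) and 624 and 778 on the next (0.31). The next 2 PSAT1 probe sets in brightness were lower instead, at 563 and 505 (-0.15) and 412 and 380 (-0.11). With the _x_at and _s_at classes left out PSAT1 stood at -0.15, so its direction depended on the probe set. PSPH, the last enzyme of the route and not among the 36, read 620 and 737 (0.24), with 3 probe sets higher by 0.12 to 0.24. ASNS, the asparagine synthetase and a standard readout of ATF4, read 809 and 795 (-0.02), and its 4 probe sets ran from -0.08 to 0.04.

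The 3 amino acid transporters among the 36 were higher on their brightest probe sets. SLC3A2, the heavy chain that both light chains need at the cell surface, read 726 and 818 (0.17), and its 7 probe sets were all higher, by 0.07 to 0.21. SLC7A5, the LAT1 light chain for large neutral amino acids, read 628 and 818, 1.29-fold higher (0.37). Its second probe set went the other way, with 259 and 241 (-0.10), and the mean of both was 0.14. SLC7A11, the light chain of the cystine-glutamate exchanger, read 339 and 370 (0.12), but 267 and 236 (-0.17) on its second probe set. Only SLC3A2 among the 3 was higher on every probe set. Of 6 further transporters in the list of ATF4 program genes, SLC6A9 (-0.18), SLC1A4 (-0.08) and SLC43A1 (-0.05) were lower, and SLC38A2 (0.006), SLC7A1 (0.04) and SLC1A5 (0.23) higher. These 6 were named after their values were seen.

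Of 5 regulators and stress effectors of the ATF4 branch 2 were higher and 3 lower, by similar amounts. DDIT3, the death-promoting factor CHOP, read 106 and 115 (0.10), at the edge of the filter and of background. TRIB3, a pseudokinase that CHOP and ATF4 induce, read 337 and 310 (-0.11) and 302 and 321 (0.08) on its 2 probe sets. CHAC1, which degrades glutathione, read 255 and 241 (-0.08). PPP1R15A, the stress-induced subunit of the eIF2 phosphatase also called GADD34, read 592 and 552 (-0.10). CEBPB, a partner of ATF4 in the composite site, read 622 and 665 (0.09). On the brightest probe sets these 5 genes lay between -0.11 and 0.10.

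**Figure D3:**
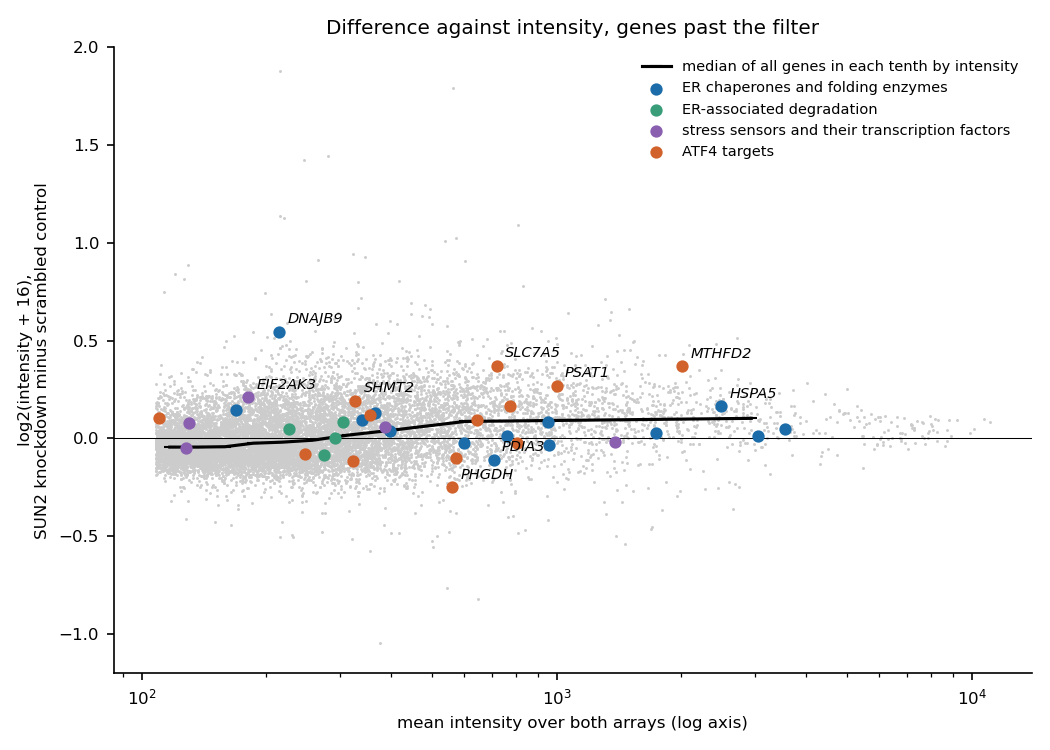
Difference between the arrays (y axis, log2) against mean intensity (log axis) for the 12220 genes past the filter (grey), with the 36 genes coloured by role and the black line joining the medians of 10 bins by intensity. The line climbs from -0.04 to 0.10, and the coloured points scatter on both sides of it, with DNAJB9, SLC7A5 and MTHFD2 farthest above and PHGDH farthest below.

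Set side by side, ER chaperones had a median difference of 0.04 and ATF4 targets one of 0.10. The gap between the medians was 0.06, and it was 0.004 when a gene's probe sets were averaged, 0.09 after quantile normalization and 0.11 after loess. All 36 members together had a median of 0.05 and 25 of them were higher (69.4%, against 49.8% of all genes). That excess changed with the processing: 16 of 36 (44.4%) were higher after quantile normalization and 18 (50%) after loess, where 41.1% and 46.4% of all genes were. The chaperone median turned to -0.03 and -0.04 under these corrections, with 5 of 14 members higher in place of 11, while the ATF4 target median stayed at 0.06 and 0.07. The ATF4 median turned instead when the _x_at and _s_at classes were left out, to -0.08 over the 10 targets that remained, 4 of them higher. The order of the 2 groups was then reversed, with a gap of -0.13.

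**Figure D4:**
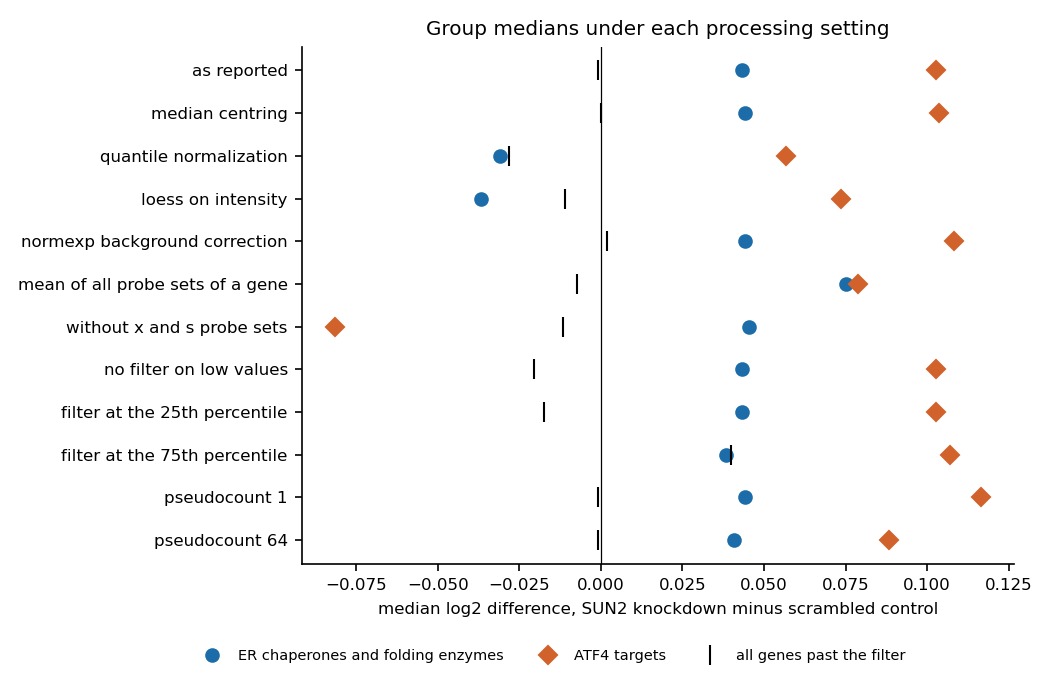
Median log2 difference (x axis) of ER chaperones (circles), ATF4 targets (diamonds) and all genes past the filter (ticks) under each processing setting. Chaperones fall below 0 with quantile normalization and loess, and ATF4 targets only without the _x_at and _s_at probe sets.

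Chaperones with an ERSE or ERSE-II did not have a higher median than those without. Among the 13 ER chaperones with a promoter window, the 8 with either element had a median of 0.04 and the 5 without one a median of 0.13. DNAJB9 was among those without a match. Across the array 27 genes past the filter held either element, with a median of 0.06 and 20 of 27 higher (74.1%, against 49.8% of all genes). After loess the median was 0.003 with 14 of 27 higher, and after quantile normalization -0.03 with 11 of 27 higher. Of these 27 genes 10 are among the 36. For the composite site of the ATF4 branch, the 287 genes past the filter that held it had a median of -0.01, with 138 higher.

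The wider pathway was read in gene lists that exclude the 36. Of 25 other ER folding and export genes past the filter 20 were higher (49.8% of all genes were), with a median of 0.11, which was 0.04 after quantile normalization and 0.06 after loess. The 1 gene more than 25% higher was SEC31A, a coat protein of vesicles that leave the ER, with 264 and 354 (0.40) on its 1 probe set past the filter. SERP1, which stabilises membrane proteins at the translocon, read 1381 and 1606 (0.22), with 4 probe sets past the filter higher by 0.22 to 0.35, and SRPRB, a subunit of the signal recognition particle receptor, read 479 and 399 (-0.25) with a second probe set at 0.34. Of 14 other ER-associated degradation genes 11 were higher, with a median of 0.09, which was 0.05 after quantile normalization and 0.07 after loess. EDEM3, a relative of EDEM1, led with 183 and 260 (0.47) and was at 0.15 on its other probe set past the filter, and the segregase VCP (0.22) and the membrane protein DERL2 (0.22) followed. DERL1, named after its values were seen, counted as higher at 0.06 on its brightest probe set. Its 3 probe sets past the filter ran down to -0.55, with a mean of -0.24.

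A list of other sensors, kinases and phosphatase subunits, which also holds subunits of eIF2 and of its exchange factor, had 15 of 17 genes higher (49.8% of all genes were) and a median of 0.12. That median was 0.05 after quantile normalization and 0.07 after loess. EIF2AK2, the kinase PKR that interferon also induces, read 224 and 293 (0.36). EIF2S1, the eIF2 subunit that all these kinases phosphorylate, read 504 and 622 (0.29) and was higher on each of 4 probe sets past the filter, and EIF2B1, a subunit of the exchange factor eIF2B, read 325 and 400 (0.29). Of 25 further ATF4 program genes past the filter 13 were higher, with a median of 0.006, which was -0.11 after quantile normalization and -0.09 after loess. ATF5, a relative of ATF4, read 158 and 195 (0.28), and CEBPG, another ATF4 partner, read 330 and 269 (-0.28), but 0.25 on its second probe set. The aminoacyl-tRNA synthetases that ATF4 raises had a median of 0.05, 10 of 12 higher, but -0.02 after quantile normalization and -0.007 after loess, with GARS1 at 0.13, and IARS1 and WARS1 at 0.09 each.

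**Figure D5:**
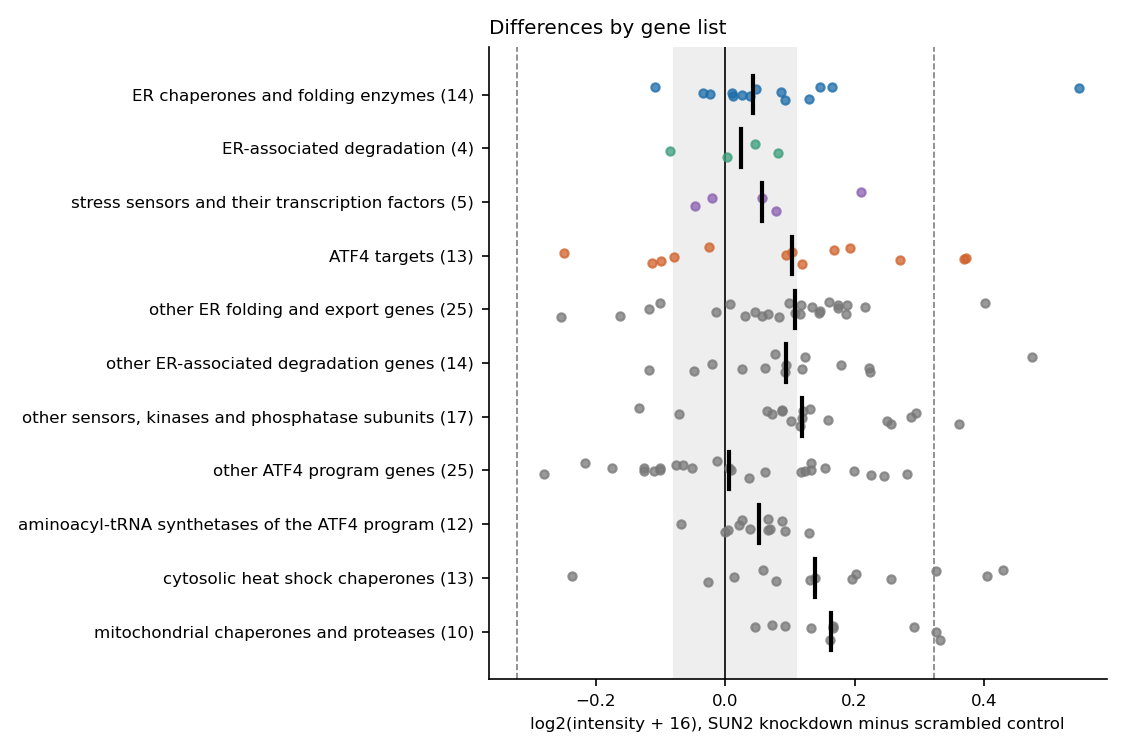
Differences (x axis, log2) of the genes of each list past the filter, with the number of genes in brackets, list medians as black bars, 25% higher and 20% lower as dashed lines and the quartiles of all genes as the grey band. Medians of the 4 groups of the 36 genes lie between 0.02 and 0.10.

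Not every value was backed by a second probe set. Of the 18 members with at least 2 probe sets past the filter, 9 had all of them in 1 direction (50%), against 63.9% of 5786 genes. The 8 with all higher included HSPA5, HSP90B1, HERPUD1, MTHFD2, SHMT2 and SLC3A2, and EDEM1 was the 1 with all lower. Of the other 18 members each had a single probe set past the filter, DNAJB9, PHGDH, ATF4, XBP1 and DDIT3 among them. For these no second reading past the filter stands beside the value given.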

How the data were processed

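The deposited table held probe set intensities on a linear scale, made by the authors; per the submitters' processing notes MAS5 and RMA were named, with no role or order, and any scaling or centring between the 2 arrays was not stated in the material used. Per the labels' protocols biotinylated cRNA was prepared from 100 ng of total RNA. The median intensity was 108.8 on the control and 107.1 on the knockdown array. Background remained in the values: 23 background control probe sets read from 31.2 to 1425 on the control array and 20 of them were lower in the knockdown, so folds of dim genes are uncertain.

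Of 49395 probe sets, 102 controls were set aside. The platform annotation gave 1 symbol to 44988, several to 1832 and none to 2473, and 44961 symbols were updated through the Entrez ID in RefSeq (GRCh38.p14). A gene was its probe set with the highest mean log2(intensity + 16), kept when this reached the median over the non-control probe sets, an intensity of 108. With 1 array per group nothing was tested: genes were counted at 25% higher, its inverse of 20% lower, and 1.5-fold, and the number of arrays limits the precision. The members and lists were chosen with earlier results of these data known. Every member could be named, with the 3 largest differences of each other list and any gene of it past 1.5-fold; PHGDH's shared probe set was singled out after its values were seen. The gene step was tested on simulated data. Alternatives were median centring, quantile normalization, loess (span 0.3), limma 3.58.1 normexp (offset 50), the mean of all probe sets, leaving out _x_at and _s_at probe sets, 3 filters, and pseudocounts of 1 and 64. Motifs were searched in RefSeq promoter windows. Protein sequences were not used here.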

Additional observations from a re-analysis of the deposited data

How the results depend on the processing

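No paired analysis was possible because the labels assign a single array to each condition; leaving an array out was likewise impossible. A value was called moved when it changed by more than the probe set SD of 0.09, and a median was called reversed when its sign changed. The cause of each change below was not tested. Under quantile normalization the medians were -0.0187 for all members, -0.0309 for ER chaperones, -0.0059 for ER-associated degradation members, -0.0044 for sensors and factors, -0.1093 for other ATF4 program genes and -0.0226 for aminoacyl-tRNA synthetases. Under loess they were -0.0016 for all members, -0.0367 for ER chaperones, -0.0864 for other ATF4 program genes and -0.0074 for the synthetases. The other ATF4 program genes, near 0 as reported, also stood at -0.012 when probe sets were averaged, -0.0076 without _x_at and _s_at probe sets, -0.0131 without a filter and -0.0116 with the filter at the 25th percentile. Without _x_at and _s_at probe sets the ATF4 target median was -0.0816 and its gap to the chaperones -0.1269. At the size of 25% higher or 20% lower, 1 member was higher and 1 lower under quantile normalization and under loess, and 0 were higher when probe sets were averaged; among all genes the shares higher and lower were 1.87% and 0.843% under quantile normalization and 2.12% and 0.646% under loess. The other 166 group values met neither definition. Counts were allowed to change by up to 1.5 times, as where 2 members in place of 3 were past 25% higher without _x_at and _s_at probe sets. Of the 36 members 23 had the same sign in every setting, and 13 had both signs. Of 608 single-gene values 62 moved and 0 of those past 25% higher or 20% lower reversed. Signal over background limits DDIT3, ERN1 and ATF6, which lie close to the filter. It also limits DNAJC3 and EIF2AK3, the others of the 5 members below an intensity of 200, and DNAJB9, with 175 in the control. Some background control probe sets read higher than these, up to 1425 on the control array.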

Other observations

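Cytosolic and mitochondrial chaperones had higher medians than the 14 ER chaperones among the 36 on the brightest probe sets. The medians of both these lists were above 0 in all settings run. The other ER folding and export genes had a median of 0.11. With the filter at the 75th percentile it was 0.1399, where the cytosolic list stood at 0.1395. Of 13 cytosolic heat shock chaperones past the filter 11 were higher (49.8% of all genes were), with a median of 0.14 (0.07 to 0.18 over the settings). Their median intensity was 1285, and in the brightest of the 10 bins by intensity all genes had a median of 0.10. The 2 lower genes were HSPB1, with 1592 and 1350 (-0.24) on its single probe set, and DNAJB1 (-0.03). Both were named after their values were seen. DNAJA1, a J-domain partner of Hsp70, read 1521 in the control and 2052.6 in the knockdown (0.43), and its 5 probe sets were higher by 0.32 to 0.43. CHORDC1, an Hsp90 cochaperone, read 686 and 913 (0.40), with 7 probe sets past the filter from -0.07 to 0.53. BAG3, a nucleotide exchange factor induced by heat shock, read 489 and 617 (0.33) on its single probe set.

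All 10 mitochondrial chaperones and proteases examined were higher on their brightest probe sets (49.8% of all genes were), with a median of 0.16 (0.07 to 0.20 over the settings). The list is bright, with a median intensity of 844 against 235 for all genes past the filter. In the brightest of the 10 bins by intensity even the lower quartile of all genes was above 0, at 0.02. The list median was 0.07 after quantile normalization and 0.07 after loess. YME1L1, named after its values were seen, ran from -0.18 to 0.37 on its 5 probe sets past the filter. The mean of all its 15 probe sets was -0.02. HSPA9, the mitochondrial Hsp70, read 1074 and 1356 (0.33), and its 5 probe sets were higher by 0.18 to 0.37. CLPX, a subunit of a matrix protease, read 154 and 196 (0.33), and GRPEL1, the exchange factor of HSPA9, read 491 and 605 (0.29) with its second probe set at 0.30. At least 25% higher were 3 of the 13 cytosolic and 2 of the 10 mitochondrial genes, against 3.09% of all genes. Of these 5, BAG3 (0.22 and 0.25), CHORDC1 (0.29 and 0.31) and HSPA9 (0.21 and 0.23) fell short of that size after quantile normalization and loess, as did CHORDC1 (0.25), HSPA9 (0.30) and CLPX (0.20) when a gene's probe sets were averaged. Whether these lists differ from the ER chaperones was not tested.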
